A study of Mus musculus with 4 samples.

Results

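The circadian clock genes described here are these 10 genes: Per1, Per2, Per3, Cry1, Cry2, Clock, Arntl, Nr1d1, Nr1d2 and Tef. They were chosen by name, with earlier results of these data known. Their members in the data are the rows of the deposited region list that overlapped each gene span widened by 5 kb on both sides (GENCODE M21, mm10). This gave 48 regions of the 45855 in the list (0.105%), at 9 of the 10 genes. The regions come from chromatin immunoprecipitation and sequencing (ChIP-seq) with H3K9ac, acetyl-lysine 9 of histone H3, a mark found at active promoters and enhancers. The cells were HT22, an immortalised mouse line of hippocampal neuronal origin (the source name in the labels reads TH22), kept in medium with serum. Control cells had 5 µM choline chloride in the medium and supplemented cells 70 µM, in both cases over 48 h; the labels name no genetic change, and all groups are this 1 line. Input DNA made up 2 of the 4 libraries and H3K9ac ChIP DNA the other 2, and the labels do not say which library belongs to which choline level.

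Each row of the list is a region that the authors assigned to condition 1 or to condition 2, with a score. The scores are those of the authors' deposited table and serve here only to describe and rank regions within it. The row names give the comparison as 5 against 70, and on that order condition 1 was taken to be 5 µM and condition 2 to be 70 µM choline. The title of the deposited list instead names input and H3K9ac, and from the list alone these readings cannot be told apart. Of all regions, 45495 were in condition 2 and 360 in condition 1. Regions common to both conditions are not part of the list, so a gene without a region may still carry H3K9ac. The list holds no value per library, no read depth and no replicate of a condition, so no difference between conditions was tested here. The time of harvest and any synchronisation of the cells are not given in the sources used here. A region within 1 kb of a start was found at 4 of 8 neuronal marker genes (Rbfox3, Syn1, Dlg4 and Eno2) and at 1 of 4 hippocampal markers (Zbtb20). It was also found at 4 of 4 fibroblast, 2 of 4 astrocyte, 1 of 4 oligodendrocyte and 1 of 4 microglial markers, where 39.5% of protein-coding genes had such a region.

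The clock is a transcriptional feedback loop with a period of about a day that runs in most mammalian cells, hippocampal neurons included. CLOCK and BMAL1, the product of Arntl, bind E-boxes as a pair and switch on the Period and cryptochrome genes, whose products then repress them. The same pair drives Nr1d1 and Nr1d2, which encode the nuclear receptors REV-ERB alpha and beta, repressors of Arntl that act at ROR elements. TEF is a PAR-domain bZIP factor that binds D-boxes, another class of clock element. Acetylation of H3 at clock gene promoters is known to cycle with this loop.

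The sequences that bear on these elements come first, since the question was where E-boxes lay relative to the regions. All are read 5′ to 3′ on the strand of the gene from the RefSeq GRCm38.p6 sequence, which is the build of the list, and capitals mark the motif. An E-box was CACGTG, an E-box-like element CACGTT or its reverse complement AACGTG, a D-box TTATGTAA or TTACGTAA, and a CRE (cyclic AMP response element) TGACGTCA. A ROR element was AGGTCA or GGGTCA directly preceded by AANT, and a GRE (glucocorticoid response element) was GNACA and TGTNC set 3 bases apart. Each was searched on both strands within 100 bp of a region's midpoint. The E-box matched 4 of the 48 regions (8.33%), against 2.95% of all regions in the list. The 4 lay at Nr1d2, Cry2 and Tef, with 2 at Tef.
Nr1d2, intron 1, chr14:18238495-18238708: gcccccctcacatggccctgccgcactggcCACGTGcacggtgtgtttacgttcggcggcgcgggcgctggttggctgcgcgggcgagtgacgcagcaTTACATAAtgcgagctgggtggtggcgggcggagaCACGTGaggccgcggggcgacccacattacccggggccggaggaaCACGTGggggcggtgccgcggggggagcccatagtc
Tef, promoter of an internal start, chr15:81811236-81811321: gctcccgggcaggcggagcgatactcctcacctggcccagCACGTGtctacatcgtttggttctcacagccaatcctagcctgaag
Tef, within an exon of a noncoding transcript, chr15:81816763-81816848: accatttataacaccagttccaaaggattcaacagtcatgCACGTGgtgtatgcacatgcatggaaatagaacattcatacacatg
Cry2, intron 3, chr2:92423300-92423385: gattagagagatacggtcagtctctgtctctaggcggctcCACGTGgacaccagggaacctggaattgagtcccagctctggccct

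The stretch of Nr1d2 held 3 E-boxes and a D-box (as its reverse complement) inside a single region, and the E-boxes lay 5, 39 and 142 bp from its midpoint. The first 2 of these fell in the window of 100 bp either side. At Tef the E-box of the internal promoter lay 28 bp from the midpoint of its region, and the other lay 80 bp from one. At Cry2 the E-box lay 89 bp from the midpoint, just outside the edge of the region itself.

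The E-box-like element matched 2 of the 48 regions (4.17%, against 3.09% of the list), at the promoters of Per2 and Nr1d1. The D-box matched 2 (4.17%, against 0.602% of the list), at Per2 and Nr1d2, and the GRE matched 1 (2.08%, against 0.316% of the list), at Per1. The ROR element (0.351% of the list) and the CRE (0.207% of the list) matched none of the 48. These are counts of letters near midpoints; they do not show that a factor was bound. The Per2 and Nr1d1 sites are shown because they lie at the annotated 5′ ends, and the Per1 site because that gene is a known target of the glucocorticoid receptor.
Per2, E-box-like, chr1:91459305-91459328: gcgcgcggtCACGTTttccactat
Per2, D-box, chr1:91459402-91459489: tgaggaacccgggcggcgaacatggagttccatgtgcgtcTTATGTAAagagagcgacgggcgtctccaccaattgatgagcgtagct
Nr1d1, E-box-like, chr11:98775360-98775445: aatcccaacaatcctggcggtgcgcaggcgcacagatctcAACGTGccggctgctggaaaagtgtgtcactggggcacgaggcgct
Per1, GRE, intron 1, chr11:69099377-69099469: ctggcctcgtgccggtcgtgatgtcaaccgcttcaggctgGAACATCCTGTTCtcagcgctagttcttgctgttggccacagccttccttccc

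Most E-boxes of these genes were away from the regions. The 10 searched spans held 84 E-boxes, of which 5 (5.95%) lay within 100 bp of a midpoint, in windows that made up 1.75% of the searched sequence. Per1 had 7 E-boxes, 5 of them within 1 kb of an annotated start, and the nearest to a midpoint was 295 bp away. The nearest E-box to a midpoint was 127 bp away at Per2, 145 bp at Per3 and 235 bp at Nr1d1. At Clock and Arntl, which encode the E-box binding pair itself, it was 2709 and 2026 bp away. Cry1 had 6 E-boxes and no region.

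**Figure D1:**
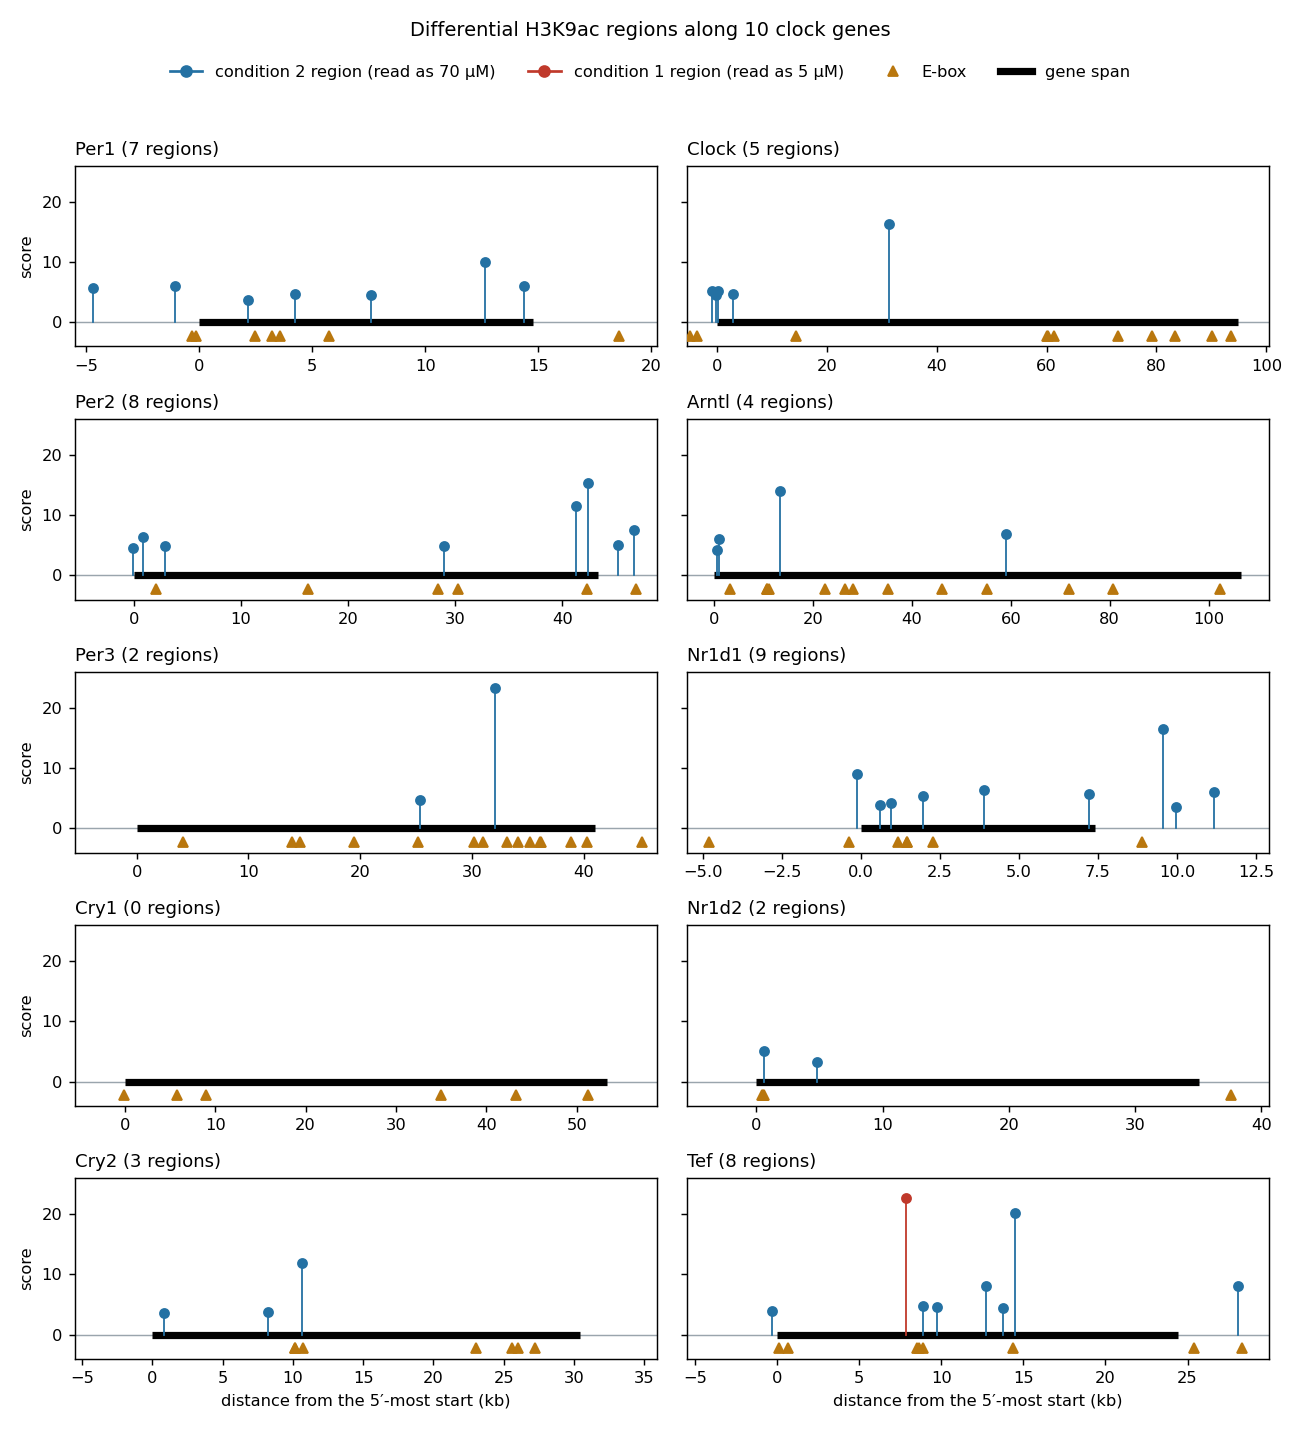
Regions along the 10 clock genes, with distance from the 5′-most annotated start in kb on each horizontal axis (scales differ between genes) and the authors' score on the vertical axis. Blue stems are condition 2 regions, the red stem at Tef is the condition 1 region, triangles are E-boxes and the black bar is the gene; Cry1 has E-boxes but no region, and the highest stems, at Per3, Tef, Nr1d1 and Clock, stand away from the 5′-most start.

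A region in the span plus 5 kb was found at 9 of 10 clock genes (90.0%), against 60.8% of 21938 protein-coding genes. The clock genes were longer: the searched span had a median of 48.0 kb, against 27.4 kb for protein-coding genes. Among the 13520 protein-coding genes whose span lay between 17.4 and 117 kb, the range of the clock genes, 66.8% had a region. The clock genes had a median of 4.5 regions, against a median of 1 for genes in that range of span. Pooled over the clock genes there were 0.871 regions per 10 kb searched, against 0.50 for genes in that range. The excess in density was not shared by all the clock genes. Density was highest at Nr1d1 (5.17), Per1 (2.83) and Tef (2.32), and Per2 and Cry2 also lay above 0.50. Clock, Nr1d2, Per3 and Arntl (0.343 to 0.477) and Cry1, which had no region, lay below 0.50. Of the 48 regions, 36 overlapped the gene itself and 12 lay only in the flanks. A start-site region, one that overlapped by at least 1 bp the 1 kb either side of an annotated start of the gene, was present at 8 of 10 clock genes (80.0%), against 39.5% of protein-coding genes. In the genes of the same range of span this share was 45.4%. These counts describe 10 named genes, and no test was made of them.

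**Figure D2:**
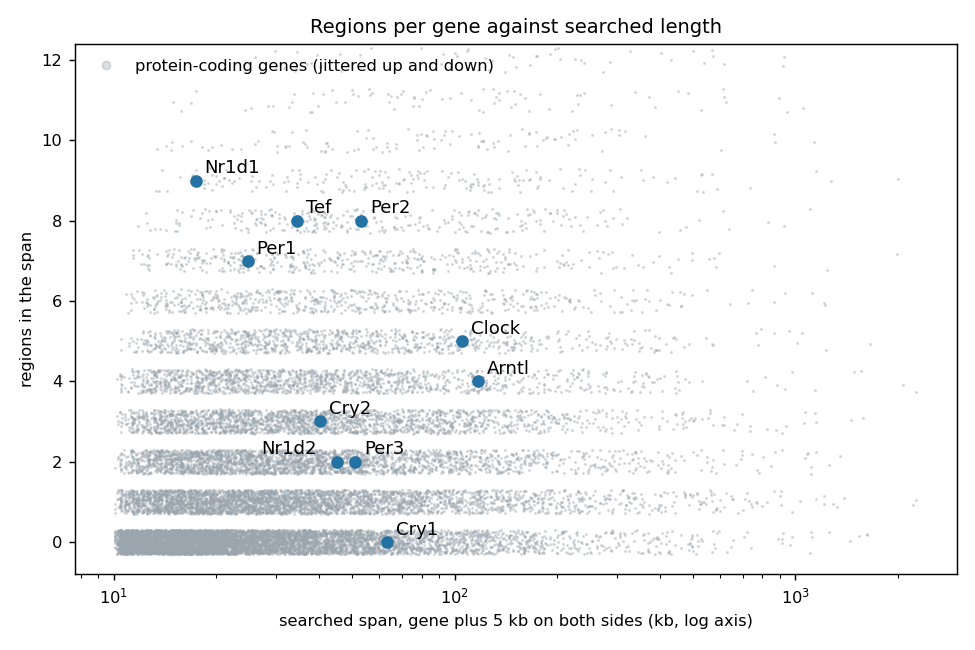
Number of regions against searched span (kb, log axis) for each protein-coding gene (grey, jittered up and down) and the 10 clock genes (blue, at their exact counts); 221 genes with more than 12 regions are not drawn. Nr1d1 has 9 regions in a short span, while Cry1 has none in a span of 63.4 kb.

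The counts differed widely among the clock genes. Nr1d1 had 9 regions, Per2 and Tef 8 each, Per1 7, Clock 5, Arntl 4, Cry2 3, Per3 and Nr1d2 2 each, and Cry1 none. For scale, 4.24% of protein-coding genes had 8 or more regions and 2.94% had 9 or more. Per 10 kb searched, Nr1d1 had 5.17 regions, more than 99.7% of protein-coding genes, Per1 had 2.83 and Tef 2.32. Clock, Nr1d2, Per3 and Arntl had between 0.343 and 0.477. The chromosomes differed too: genes on chromosome 11, where Per1 and Nr1d1 lie, had 0.652 regions per 10 kb and those on chromosome 15, where Tef lies, 0.713. Genes on chromosome 10 (Cry1) had 0.250 and those on chromosome 14 (Nr1d2) 0.139. The part of chromosome in the counts of these genes was not tested.

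The Period genes encode the PER proteins that carry the negative arm of the loop, and they had 17 regions, 4 of them at starts. Per1 (chromosome 11, 69095217 to 69109960, plus strand) had 7 regions with scores from 3.70 to 9.92. Its strongest region, at 69107696 to 69107990, lay in intron 20 of the reference transcript (the principal one of the annotation, used for all exon and intron numbers), near the 3′ end of the gene. At its starts, a region at 69093998 to 69094242 scored 6.08 and lay 1097 bp upstream of the 5′-most start. This region was 87.8% masked sequence (repeats and low complexity in RefSeq). A region at 69099374 to 69099527 scored 4.70, lay in intron 1, 502 bp downstream of an annotated start, and held the GRE shown above. The other regions of the gene body scored 3.70 (69097314 to 69097449), 4.53 (intron 9) and 6.03 (3′ UTR, exon 23). A further flank region, at 69090451 to 69090607 (score 5.74), lay inside the neighbouring synaptobrevin gene Vamp2 and 845 bp from a start of that gene.

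The E-box of the promoter of Per1, 166 bases before a RefSeq start, lay 664 bp from the nearest midpoint, and no region overlapped either of the 2 RefSeq promoters of the gene. It is shown as the promoter E-box of a classical clock target that has regions, but none overlapping this promoter.
Per1, E-box, chr11:69098723-69098849: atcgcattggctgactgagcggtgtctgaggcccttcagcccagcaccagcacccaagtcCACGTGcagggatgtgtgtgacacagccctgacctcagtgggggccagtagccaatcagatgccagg

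Per2 (chromosome 1, 91415982 to 91459324, minus strand) had 8 regions, with scores from 4.60 to 15.39. Regions stood at both ends of the gene. At the 5′ end, a region at 91459284 to 91459469 (score 4.60) covered the annotated start and held the E-box-like element and the D-box shown above, with 61.8% G and C and 21 CpG sites. Another, at 91458340 to 91458607 (score 6.40), lay in intron 1, 851 bp downstream of the start. At the 3′ end the scores were higher: 15.39 in the 3′ UTR and 11.56 in the coding part of exon 23, the last exon. Between the ends, regions in intron 16 and intron 1 scored 4.89 and 4.88. Beyond the 3′ end, 2 flank regions (scores 7.48 and 4.98) lay 478 and 47 bp from a start of Hes6, which encodes a bHLH factor. The region that scored 7.48 lay inside Hes6.

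Per3 (chromosome 4, 151003652 to 151044665, minus strand) had only 2 regions and none within 1 kb of a start. Its region at 151012507 to 151012726 scored 23.33, the highest of the 48 and above all but 2.29% of the list. It lay in coding exon 17, 3529 bp downstream of the nearest annotated start of the gene, and was 63.2% G and C with 11 CpG sites. The other, at 151019291 to 151019422, scored 4.66 and lay in intron 12. Both also lie within the annotated span of Camta1, a gene of the same strand that contains Per3. The RefSeq promoter of Per3 carried 2 D-boxes, 205 and 158 bases before the start, and no region overlapped it; it is the only clock gene promoter here with 2 of these sites.
Per3, D-boxes, chr4:151044755-151044915: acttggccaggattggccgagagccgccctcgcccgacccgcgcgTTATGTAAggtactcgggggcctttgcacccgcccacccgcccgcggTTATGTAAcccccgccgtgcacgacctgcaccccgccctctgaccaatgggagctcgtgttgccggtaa

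The cryptochromes are the partners of the PER proteins and the strongest repressors of the loop, and they were the group with the fewest regions, 3 in all. Cry1 (chromosome 10, 85131700 to 85185064, minus strand) had no region in 63.4 kb, although 58.3% of the protein-coding genes of chromosome 10 had one. Its RefSeq promoter held an E-box 60 bases and an E-box-like element 79 bases before the start.
Cry1, E-box-like and E-box, chr10:85185065-85185193: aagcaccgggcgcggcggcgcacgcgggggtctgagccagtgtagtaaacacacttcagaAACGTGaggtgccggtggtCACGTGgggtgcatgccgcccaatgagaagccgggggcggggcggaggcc

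Cry2 (chromosome 2, 92403646 to 92434043, minus strand) had 3 regions. The region at 92423357 to 92423507 in intron 3 scored 11.89 and stood next to the E-box shown above. The other 2 were among the weakest of the list: a region at 92425726 to 92425875 scored 3.79 and a region at 92433126 to 92433266 scored 3.63, below 92.7% and 95.6% of the list. The last of these lay 734 bp from a start and made Cry2 a gene with a start-site region; within 500 bp of a start Cry2 had none.

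Clock and Arntl encode the activating pair and together had 9 regions, 6 of them at starts. Clock (chromosome 5, 76209868 to 76304792, minus strand) had 3 regions around its 5′ end. They were at 76304620 to 76304797 (score 5.12), 76304976 to 76305128 (score 4.52) and 76305639 to 76305862 (score 5.14). The first covered an annotated start and had its midpoint in a 5′ UTR, with 77.0% G and C and 29 CpG sites in 178 bp. The second was 77.8% G and C. The gaps between neighbours were 178 and 510 bp. An antisense transcript, Gm7467, starts there too: its start lay 79, 100 and 763 bp from the 3 regions, so both genes have a start near them. The strongest region of Clock scored 16.29, at 76273448 to 76273605, and lay in a noncoding exon, within intron 3 of the reference transcript. It counted as a start-site region because an internal start of the gene lies 486 bp upstream of its midpoint. It was 51.3% G and C with 1 CpG site, well below the 2 regions nearest the 5′ end. The remaining region, in intron 2, scored 4.61 and lay 8 bp from a start of the unclassified transcript Gm43658.

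Arntl (chromosome 7, 113207465 to 113314126, plus strand) had 4 regions, all in introns. A pair just inside the gene, at 113207878 to 113208190 and 113208482 to 113208642, scored 4.24 and 6.0. They lay 477 and 1005 bp downstream of a start. The first of them was 70.0% G and C with 27 CpG sites. The strongest, at 113220602 to 113220865, scored 13.96 and lay in intron 1, 13176 bp from a start. The last, at 113266358 to 113266478 in intron 2, scored 6.89 and was 60.3% masked. One RefSeq promoter of Arntl held a ROR element, 27 bases after the start. Its nearest midpoint was 493 bp away.

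Nr1d1 and Nr1d2 encode the REV-ERB receptors and had 11 regions. Nr1d1 (chromosome 11, 98767932 to 98775333, minus strand) had 9 regions in 17.4 kb, with scores from 3.53 to 16.42, and the regions covered 1731 bp of it. At the promoter, a region at 98775357 to 98775555 scored 9.10, more than any other region within 1 kb of the 5′-most start of a clock gene. Its midpoint was 123 bp upstream of the start and it held the E-box-like element shown above. Inside the gene, 3 regions followed in the first 2 kb, at 98774633 to 98774803 (3.96), 98774296 to 98774489 (4.22) and 98773238 to 98773496 (5.47). A region in intron 3 scored 6.38. The 3′ part of Nr1d1 overlaps Thra, the thyroid hormone receptor alpha gene of the opposite strand. The region in the last exon of Nr1d1 (5.64) and the 3 regions beyond it, which include the strongest (16.42, at 98765676 to 98765875), all lay within Thra.

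Nr1d2 (chromosome 14, 18204054 to 18239127, minus strand) had 2 regions, both in intron 1. The region at 18238302 to 18238764 was the widest of the 48, at 463 bp, with 74.3% G and C and 62 CpG sites. It scored 5.08, lay 478 bp downstream of a start, and held the 3 E-boxes and the D-box shown above. The other, at 18234280 to 18234413, scored 3.25, the lowest of the 48 and below 99.7% of the list.

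Tef (chromosome 15, 81802421 to 81826863, plus strand) had 8 regions and was the only gene of the 10 with a condition 1 region. This region, at 81810198 to 81810340, scored 22.69, the 16th highest of the 360 condition 1 regions in the list. It lay in intron 1 of the reference transcript, 777 bp upstream of an internal start. Across the genome 1.75% of protein-coding genes had a condition 1 region in the same kind of span. It is printed because it has the highest score among the start-site regions of the 10 genes, the others all being condition 2 regions. The highest score among those others was 16.29, at Clock. Capitals mark CpG sites.
Tef, condition 1 region, chr15:81810198-81810340: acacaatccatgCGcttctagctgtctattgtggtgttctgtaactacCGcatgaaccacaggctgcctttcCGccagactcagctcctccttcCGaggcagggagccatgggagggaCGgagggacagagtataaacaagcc

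The condition 1 region was followed after 867 bp by a condition 2 region at 81811208 to 81811407, which scored 4.77, and 641 bp farther by another at 81812049 to 81812230, which scored 4.56. The first of these held the E-box of the internal promoter, with 62.0% G and C and 15 CpG sites, and the second covered an annotated start. The annotated start nearest to each of the 3 regions was a different one. At the 5′-most start, a region at 81802033 to 81802224 scored 3.94 and lay 293 bp upstream. It lay within the antisense transcript Gm17597, 389 bp from a start of that transcript. The strongest condition 2 region of Tef scored 20.20, at 81816790 to 81816982, and held the E-box within the exon of a noncoding transcript. Scores elsewhere were 8.12 in coding exon 2, 4.42 in another noncoding exon and 7.99 beyond the 3′ end. The last of these was 72.4% masked.

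Median scores were lower at starts than elsewhere, both at the clock genes and in the whole list. At the clock genes, 23 regions lay within 1 kb of a start of any protein-coding gene and had a median score of 5.08. The 25 others had a median of 5.98. In the list these medians were 5.00 for 13316 regions and 8.73 for 32539 regions. Thus the clock regions at starts had a median close to that of the list, and those elsewhere had a lower one. In all, 15 of the 48 regions (31.2%) scored at or above the list median of 6.64, and 6 (12.5%) scored above 15, against 25% of the list. The commonest exact score of the list, 19.01, shared by 2552 regions, did not occur at these genes. Of the 48 regions, 4 (8.33%) were more than 50% masked, against 13.9% of the list.

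**Figure D3:**
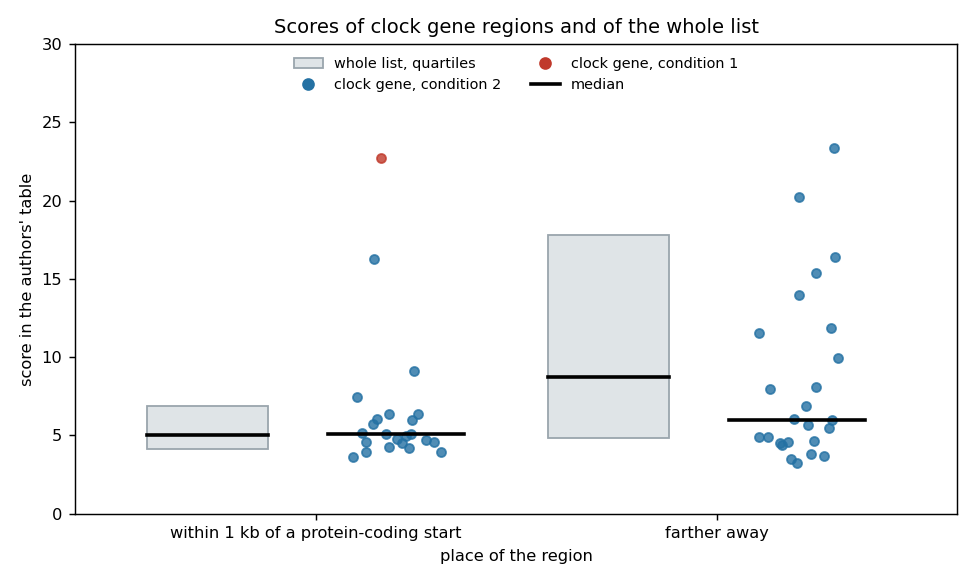
Scores of the 48 clock gene regions (points, spread sideways for view) and of the whole list (boxes from the first to the last quartile), within 1 kb of any protein-coding start or farther away; black lines are medians. The clock gene points at starts cluster near the list median of 5.00, apart from the red condition 1 point at Tef (22.69) and a Clock region (16.29), while points elsewhere reach 23.33.

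Around starts the clock regions lay on either side. With midpoints within 1000 bp of a start of the same gene there were 17 regions, 9 upstream and 8 downstream (47.1% downstream). In the list, measured to the nearest protein-coding start, 62.4% of 12707 such regions were downstream. Of the 9 upstream clock gene regions, those of Tef with midpoints 7848, 8886 and 9718 bp downstream of its 5′-most start lay before internal starts only. So did the Cry2 region, 847 bp downstream of the 5′-most start of that gene. By RefSeq promoters, which run from 250 bases before to 50 bases after each start, 4 of 14 clock gene promoters overlapped a region (28.6%), against 8.01% of 32851 promoters. These were 2 of the 3 listed for Clock, that of Nr1d1 and 1 of the 2 for Tef. Per2 has no entry in that table. In the same windows the E-box occurred in 4 of the 14, at Cry1, Per1 and Tef, against 7.15% of all promoters.

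**Figure D4:**
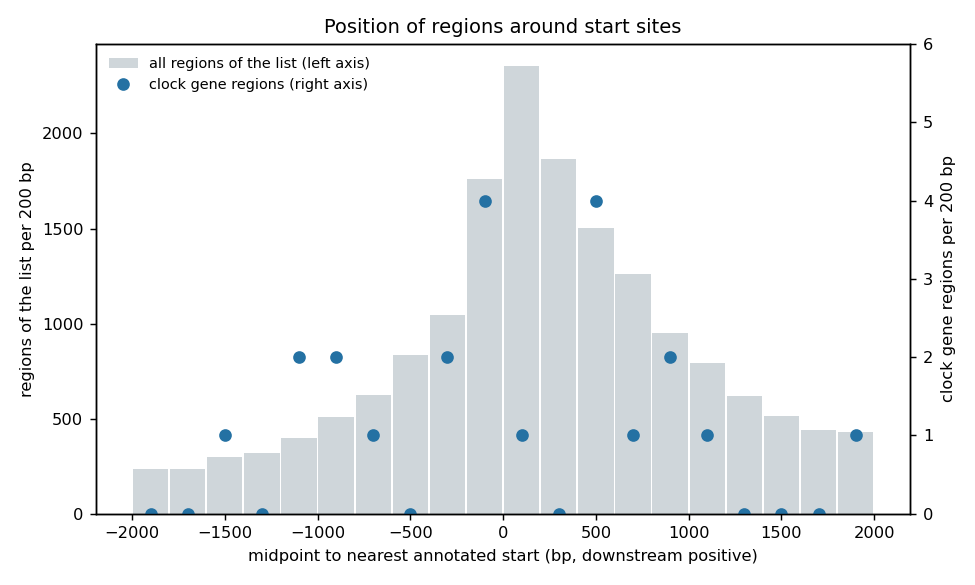
Midpoints of regions relative to the nearest annotated start, per 200 bp: all regions of the list to protein-coding starts (bars, left axis) and clock gene regions to starts of their own gene (points, right axis). The list peaks with 2353 regions in the first 200 bp downstream, whereas the clock gene points reach 4 just upstream and 4 at 400 to 600 bp downstream.

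The 5 kb flank set which regions belonged to a gene. The region nearest to the limit on the inside lay 4610 bp upstream of Per1 (score 5.74), and the nearest on the outside lay 5615 bp downstream of Per1 (score 25.62). The latter scored higher than any of the 48.

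Beyond the 10 genes, 24 further genes of the clock were examined. A region was present at 21 of them (87.5%) and a start-site region at 14 (58.3%), against the 60.8% and 39.5% of protein-coding genes given above. These shares were not matched for span, and the searched spans of the 24 genes ran from 13.7 kb (Ciart) to 744 kb (Rora). The 24 genes held 62 regions, 1 of them in condition 1, at Nfil3, which encodes a repressor that competes with TEF at D-boxes. The strongest start-site scores were at Csnk1d (19.01) and Csnk1e (12.30), the casein kinase genes whose products phosphorylate PER proteins, and at Cipc (17.98), which encodes an inhibitor of CLOCK. The score at Csnk1d is the commonest exact score of the list, shared by 2552 regions. Usp2, a deubiquitinase gene under clock control, scored 8.76, Timeless 7.57 and Gsk3b, a kinase gene, 7.15. Bhlhe40, which encodes an E-box repressor, scored 5.42 and Dbp, which encodes another PAR-domain factor, 4.80. Arntl2, which encodes a relative of BMAL1, and Fbxl21 were among the genes without a region. Another 7 had regions but none at a start: Npas2, Rora, Rorb, Hlf, Bhlhe41, Btrc and Wee1. The E-box lay within 100 bp of the midpoint of 3 of these 62 regions (4.84%), where 2.95% of the list had one.

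**Figure D5:**
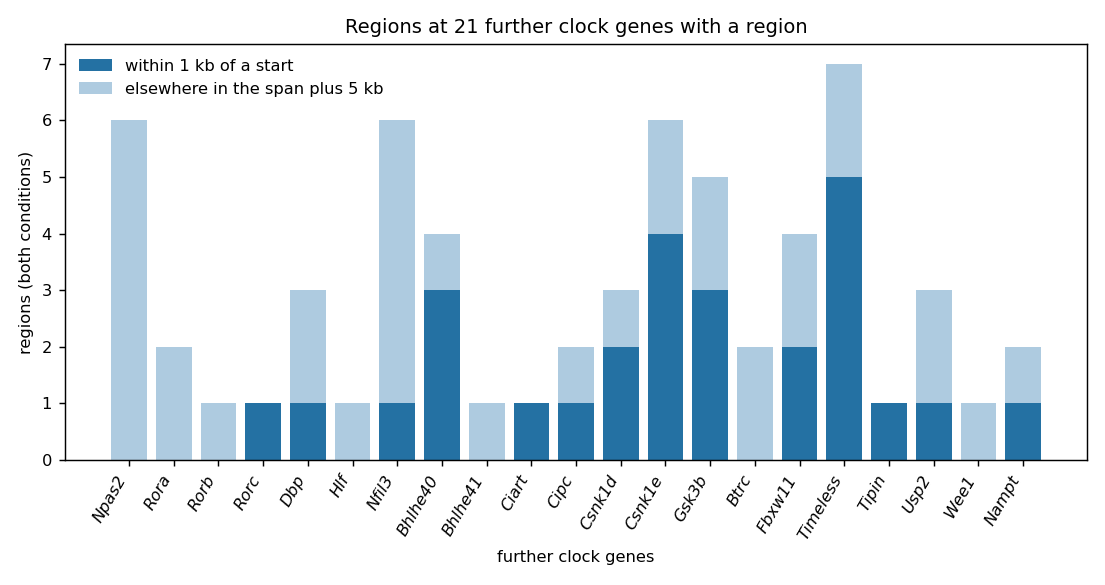
Regions of both conditions at the 21 further clock genes with a region, split into those within 1 kb of a start of the gene (dark) and those elsewhere in the span plus 5 kb (light). Timeless has the most, 7 regions, 5 of them at starts, while the 6 regions of Npas2 all lie elsewhere.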

How the data were processed

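H3K9ac ChIP and input DNA of HT22 cells were sequenced in 4 libraries. The submitters' processing notes name mm10, MACS2, Bowtie 1.0.0 and CASAVA 1.8. Per the series' design text the authors called peaks against input and compared conditions with bdgdiff. The deposited score has no column name, and per the file headers each block holds regions unique to condition 1 or 2. Library scaling and read depth are not given in the sources used here.

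Regions were set against GENCODE M21 and RefSeq GRCm38.p6 on chromosomes 1 to 19, X and Y with Python 3.11.15 and samtools 1.23.1. Coordinates count from 1. A region's place is that of its midpoint over all transcripts of the gene, and exon numbers are those of its principal transcript. Overlap and motif functions were tested on simulated data. The genes and lists were chosen with earlier results of these data known. All 10 genes and all their regions are reported; of the further genes, the 8 strongest at starts and those without regions are named, except 1 that is not reported here, and the 7 with regions only elsewhere were named after their values were seen.

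Other settings were flanks of 0 or 10 kb, start windows of 500 or 2500 bp, the 5′-most start, the midpoint, motif windows of 50 or 250 bp or the region itself, only rows scoring at least the median, and no commonest score. Condition 2 regions alone were added after the data were seen.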

Additional observations from a re-analysis of the deposited data

How the results depend on the processing

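No paired analysis was possible because the list gives no value per library. When rows scoring below the list's median were dropped, 15 regions remained at the clock genes in place of 48, 3 genes had a start-site region in place of 8 (Clock, Nr1d1 and Tef; 14.6% of protein-coding genes), and 6 further clock genes had one in place of 14. The median score itself lowers these counts by construction. An E-box lay within 50 bp of the midpoint in 2 regions (1.45% of the list) and within 250 bp in 9 (7.40%), in place of 4 (2.95%). Every other setting listed kept each count within 1.5 times its value. Genes with a region numbered 9 of 10 except when low rows were dropped, which removed Nr1d2 and left 8 (43.9% of protein-coding genes). The share of protein-coding genes with a region was 52.1% with no flank and 65.4% with a flank of 10 kb. The start window of 500 bp removed Cry2 from the genes with a start-site region and left 7 (32.5% of protein-coding genes). Condition 2 regions alone gave 47 regions and left the counts of genes as they were. Depth is unknown, so no precision follows from it.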
